A study of Homo sapiens with 12 samples.

Results

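The baseline difference between BoM-1833 and MDA-MB-436, both human triple-negative breast cancer cell lines, was measured by mRNA sequencing in their control libraries. The members were the 6 libraries of the series, out of 12, that received the non-targeting small interfering RNA (siNT), 3 from each line and chosen by their labels. BoM-1833 siNT and MDA-MB-436 siNT cells were reverse transfected with a non-targeting control pool at 5 nM total siRNA and harvested after 72 h, so both groups carry the same transfection; both lines were grown in DMEM, and stranded mRNA libraries were made. The other 6 libraries, 3 per line, received siRNAs against PHF19 (siPHF19) and were used only to see whether a line difference came back in a second set of libraries. Each line stands for 1 cell line rather than for a tumor type, the labels do not say whether replicates were separate cultures, and p-values therefore measure the spread between these libraries.

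MDA-MB-436 is a line from a metastatic pleural effusion of a breast cancer, and BoM-1833 is a derivative of MDA-MB-231 that was selected in animals for growth in bone. Triple-negative breast cancer lacks the estrogen and progesterone receptors and amplified ERBB2, and its cell lines range from luminal or basal epithelial states to mesenchymal ones. Metastasis to bone draws on secreted factors and proteases that act on matrix, osteoclasts and osteoblasts, while RAS and ERK signaling, NF-kB, and the Polycomb complexes set much of the transcriptional background on which such programs run.

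The 3 BoM-1833 libraries held 17637651 to 21258567 reads and the 3 MDA-MB-436 libraries 15186338 to 24010271 reads. Levels are given below as CPM, the reads of a gene per 1000000 reads of the library after scaling the 6 libraries together, and they are not corrected for transcript length, so they were compared between lines within a gene and not between genes. The labels name no sequencing run, so the line and any run effect cannot be told apart. Across 14543 genes with enough reads to test, 11757 differed between the lines (80.8%) at an adjusted p under 0.05 by edgeR's quasi-likelihood test. Of these, 5768 were higher in BoM-1833 (39.7%) and 5989 were higher in MDA-MB-436 (41.2%). Since most genes differed, a stricter test asked whether a gene was more than 2-fold apart (edgeR glmTreat, adjusted p under 0.05). It called 4984 genes (34.3%), 2434 higher in BoM-1833 (16.7%) and 2550 higher in MDA-MB-436 (17.5%). The libraries of the lines did not overlap at 11916 genes (81.9%). The median log2 fold change (BoM-1833 over MDA-MB-436) over all genes tested was -0.03, and the median absolute value was 0.82. "Higher" below means past the 2-fold test unless another test is named, and the shares of 16.7% and 17.5% are the background for each list. A gene that is silent in one line was tested only because the other line expresses it, so counts over tested members describe those members and not whole families. Medians of lists did not change when genes with 0 reads in a line were set to their lower bounds. That step keeps the sign and mostly moves values far from the median, so it could hardly change it. It does not address this selection.

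**Figure D1:**
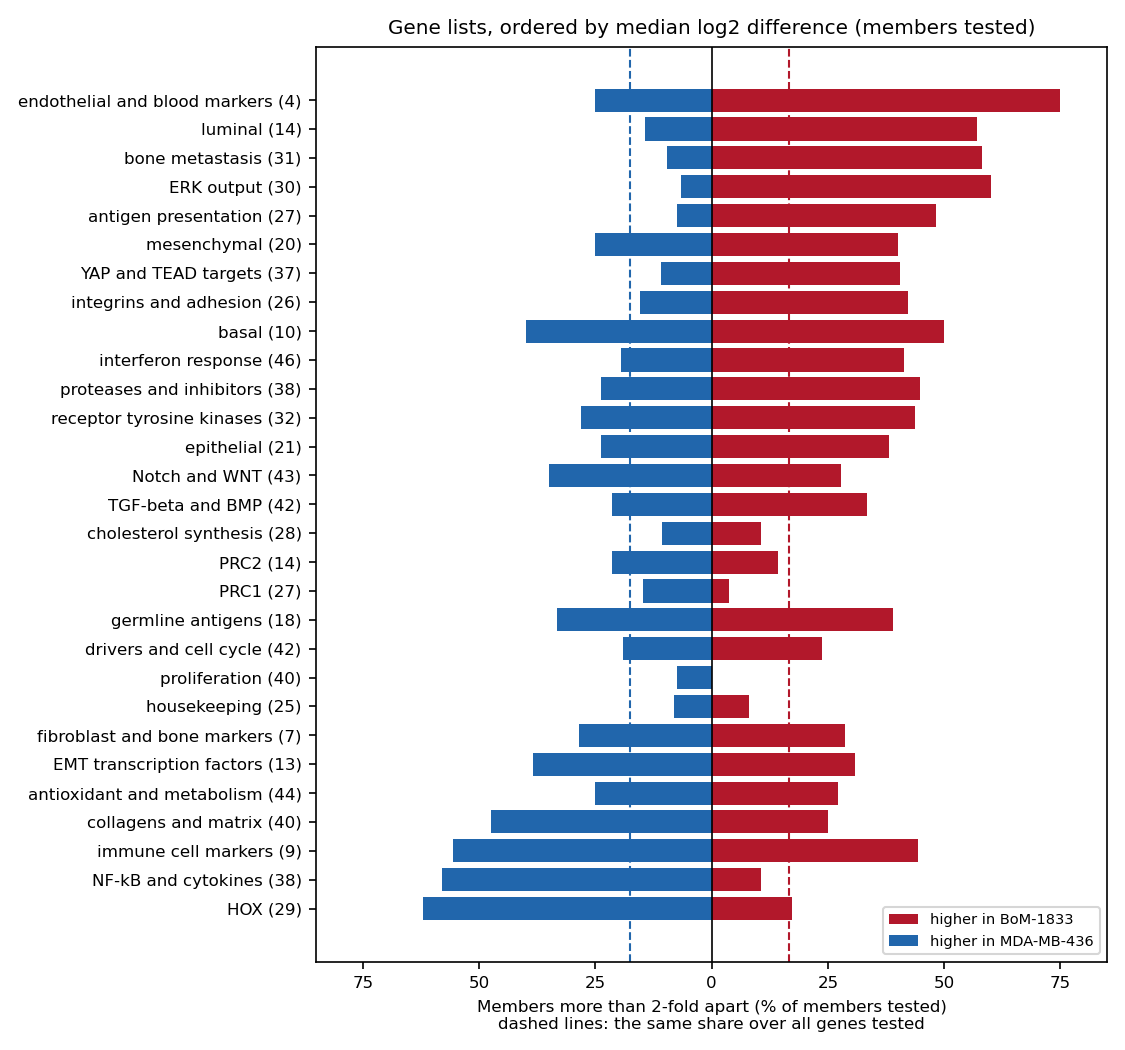
Share of each list's tested members that were more than 2-fold higher in BoM-1833 (red, right) or in MDA-MB-436 (blue, left), in percent, with the number of members tested in parentheses and the share over all genes tested as dashed lines (16.7% and 17.5%). Lists are ordered by their median log2 fold change; the ERK output list reaches 60% on the BoM-1833 side and the HOX list 62.1% on the MDA-MB-436 side.

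The largest differences were genes with high levels in one line and none or nearly none in the other. In all, 152 genes had a mean of at least 1 CPM in BoM-1833 and 0 reads in all 3 MDA-MB-436 libraries, and 299 genes had the reverse. A count of 0 in all 3 libraries allows up to 3 reads, or 0.0526 CPM in MDA-MB-436 and 0.0534 CPM in BoM-1833, and folds against such a group are lower bounds from that floor and cover counting error only. Stray reads were not spread evenly over the BoM-1833 libraries. Over 61 genes with at least 20 CPM in MDA-MB-436 and 1 to 10 reads in BoM-1833, replicate 2 held 50.4% of the reads at 32% of the scaled depth, replicate 1 30.2% at 37.1% and replicate 3 19.4% at 31%. Over the 54 genes of the reverse kind, the MDA-MB-436 libraries held 36.5, 41.9 and 21.6% of the reads at 30.4, 42.4 and 27.1% of the depth. The source of these reads was not tested, and near-zero levels in BoM-1833 that rest on 2 or more reads of replicate 2 alone are named where they are given. UCHL1 (ubiquitin C-terminal hydrolase L1, a neuronal deubiquitinase; chr4:41256413-41268455, plus strand) had 599, 501 and 455 CPM in the MDA-MB-436 libraries and 0 reads in BoM-1833, at least 9713-fold lower (adjusted p = 7.52e-11, edgeR). NID1 (nidogen 1, a basement membrane linker; chr1:235975830-236065162, minus strand) had 126, 156 and 174 CPM in MDA-MB-436 and 0 reads in BoM-1833, at least 2846-fold lower. No library of one line came near any library of the other for either gene. PXDN (peroxidasin, an enzyme that crosslinks collagen IV; chr2:1631887-1744852, minus strand) had 829, 940 and 1069 CPM in BoM-1833 and 0.115, 0.165 and 0 CPM in MDA-MB-436, a log2 fold change of 13.05 with an SE of 0.24 (adjusted p = 4.38e-12, edgeR). SE here and below is the absolute log2 fold change divided by the square root of the quasi-likelihood F statistic. It can be smaller than the counting error for genes with few reads in a line, such as PXDN.

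Promoters of these 3 genes, each the first of its direction or the next to have a single promoter in the RefSeq table used, are shown with that of AGR2, a luminal gene described below that was picked after its values were seen. Each covers 250 bases before to 50 after the start site, in GRCh38.p14, read 5′ to 3′ on the gene's strand, with CpG dinucleotides in capitals because CpG density separates the main classes of human promoter. Over 35116 promoters of this length in the table the median was 14 CpGs, with quartiles of 4 and 28.
UCHL1 promoter, chr4:41256678-41256977, plus strand, 25 CpGs, silent in BoM-1833: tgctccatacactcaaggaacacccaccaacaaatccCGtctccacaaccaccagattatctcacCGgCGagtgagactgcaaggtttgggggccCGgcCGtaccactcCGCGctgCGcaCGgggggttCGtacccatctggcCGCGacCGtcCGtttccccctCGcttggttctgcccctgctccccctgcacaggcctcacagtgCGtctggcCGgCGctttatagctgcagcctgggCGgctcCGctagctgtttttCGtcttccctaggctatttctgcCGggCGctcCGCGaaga
NID1 promoter, chr1:236065041-236065340, minus strand, 36 CpGs, silent in BoM-1833: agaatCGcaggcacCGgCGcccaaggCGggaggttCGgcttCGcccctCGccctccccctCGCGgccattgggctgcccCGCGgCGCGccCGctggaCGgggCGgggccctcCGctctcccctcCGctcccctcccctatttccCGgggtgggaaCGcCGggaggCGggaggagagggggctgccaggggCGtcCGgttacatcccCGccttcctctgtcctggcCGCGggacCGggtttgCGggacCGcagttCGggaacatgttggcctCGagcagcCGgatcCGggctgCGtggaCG
PXDN promoter, chr2:1744466-1744765, minus strand, 42 CpGs, near 0 in MDA-MB-436: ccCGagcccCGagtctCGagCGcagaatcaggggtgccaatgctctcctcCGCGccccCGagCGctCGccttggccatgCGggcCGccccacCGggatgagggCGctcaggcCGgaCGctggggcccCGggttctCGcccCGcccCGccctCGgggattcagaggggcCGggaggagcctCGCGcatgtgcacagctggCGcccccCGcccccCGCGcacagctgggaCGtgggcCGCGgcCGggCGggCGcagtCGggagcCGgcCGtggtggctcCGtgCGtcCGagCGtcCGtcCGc
AGR2 promoter, chr7:16804950-16805249, minus strand, 6 CpGs, silent in MDA-MB-436: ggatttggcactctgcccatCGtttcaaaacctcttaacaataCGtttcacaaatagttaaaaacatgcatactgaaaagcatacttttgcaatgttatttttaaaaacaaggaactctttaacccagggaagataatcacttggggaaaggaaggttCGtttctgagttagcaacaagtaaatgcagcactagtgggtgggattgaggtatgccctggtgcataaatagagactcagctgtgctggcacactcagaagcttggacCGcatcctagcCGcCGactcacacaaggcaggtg
Promoters of genes off in one line thus included CpG counts above and below the median of the table. A summary over all such genes was not made, since the table held a promoter for only 80 of 152 and 190 of 299 of them, under the 80% that such a check needs.

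Other leading genes on the BoM-1833 side were CST1 and CST4, 2 near-identical cystatins whose reads can be shared (301 ± 57.4 and 165 ± 34.5 CPM, SD, n = 3). FOXA2, a pioneer transcription factor of endoderm, had 97.5, 96.9 and 102 CPM in BoM-1833 and 0 reads in MDA-MB-436, at least 1873-fold higher. EVPL, which encodes the desmosome and cornified envelope protein envoplakin, MEF2C, a myocyte enhancer factor, FAT3, an atypical cadherin, GALNT5, a mucin-type glycosyltransferase, and PNMAL1 were each at 0 reads in MDA-MB-436 and at 45.2 to 61.5 CPM in BoM-1833. On the MDA-MB-436 side, GREM1, a secreted BMP antagonist, had 145, 155 and 152 CPM against 0 reads in BoM-1833, at least 2835-fold lower. ADCY1, an adenylyl cyclase, NCAM1, a neural adhesion molecule, KIF1A, an axonal kinesin, SIM1, a neural transcription factor, C1QTNF4, a complement C1q-related secreted protein, and NID2, the second nidogen, were at 0 reads in BoM-1833 and at 47.2 to 78.8 CPM in MDA-MB-436. BHMT2, a betaine-homocysteine methyltransferase, had 336, 336 and 333 CPM in MDA-MB-436 and 0, 0.167 and 0 CPM in BoM-1833, a ratio of 6274 with a 95% counting interval of 2146 to 30424. FGF2, a basic fibroblast growth factor, had 184, 208 and 223 CPM in MDA-MB-436 and 0, 0.167 and 0 CPM in BoM-1833, a ratio of 3840 (1314 to 18622). All 3 reads of either gene were in BoM-1833 replicate 2, and without that library BHMT2 was at least 4270-fold and FGF2 at least 2613-fold lower in BoM-1833. EVPL, NID2, BHMT2 and FGF2 overlap coding genes on the opposite strand, as do SPINT2, CLDN7, LOX, IL6, RB1, CDKN2A, CDKN2B, TRIM22, BGN, TFPI2, VGLL4, LGR5, RBBP4, RBBP7, DDX43, FOXM1, REEP5 and ALDH1L2 below, and the use of strand in counting is not given in the sources used here.

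The receptors that define hormone-dependent luminal cancers were nearly unread in both lines: ESR1 had at most 6 reads over 3 libraries and PGR at most 2, both too few to test. The remaining luminal genes were mostly higher in BoM-1833. Of 14 luminal genes tested out of 18, 8 were higher in BoM-1833 and 2 in MDA-MB-436, with a median log2 fold change of 2.58. KRT19, a simple-epithelium keratin (chr17:41523617-41528308, minus strand), had 379, 325 and 340 CPM in BoM-1833 and 0.0576, 0 and 0 CPM in MDA-MB-436. That is a ratio of 19927 with a 95% counting interval of 3576 to 787102, since a single read stands on the MDA-MB-436 side. SPDEF, an ETS factor of luminal and secretory cells (chr6:34537802-34556333), had 41.6, 35.8 and 41.1 CPM in BoM-1833 and 0, 0.0413 and 0.0646 CPM in MDA-MB-436 (ratio 1129, 312 to 9327). AGR2, a disulfide isomerase of secretory epithelia, had 12.2, 9.97 and 11.5 CPM in BoM-1833 and 0 reads in MDA-MB-436, at least 215-fold higher. Against this direction, ELF3, an epithelial ETS factor, had 1.34, 1.06 and 1.21 CPM in BoM-1833 and 22.2, 27.9 and 21.2 CPM in MDA-MB-436, a log2 fold change of -4.30 ± 0.17 (SE). KRT7, a keratin of ductal epithelium, was 3.98-fold higher in MDA-MB-436, and it overlaps another keratin gene on its strand.

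Basal and junctional genes went both ways. Of 10 basal genes tested out of 17, 5 were higher in BoM-1833 and 4 in MDA-MB-436; the classical basal keratins KRT5, KRT14, KRT6A and KRT6B were too low to test in either line. KRT17, a keratin of basal and stressed epithelium, had 0.0961, 0.223 and 0.0574 CPM in BoM-1833 and 40.5, 43.7 and 33.6 CPM in MDA-MB-436, 313-fold apart. The desmosomal cadherin gene DSC3 was at 0 reads in BoM-1833 and at 8.3 CPM in MDA-MB-436. By contrast COL17A1, a hemidesmosome collagen, had 14.5, 12.2 and 13.7 CPM in BoM-1833 and 0.115, 0 and 0.258 CPM in MDA-MB-436 (log2 fold change 6.90 ± 0.35, SE). FOXC1, a forkhead factor linked to basal-like cancers, was 3.25-fold higher in BoM-1833.

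CDH1, which encodes E-cadherin, was nearly absent from both lines (mean 0.34 CPM in BoM-1833 and 0.055 CPM in MDA-MB-436) and did not pass the filter, as did not the epithelial regulators ESRP1, GRHL2, OVOL1 and OVOL2. Of 21 epithelial genes tested out of 30, 8 were higher in BoM-1833 and 5 in MDA-MB-436. SPINT2, an inhibitor of matriptase and hepsin (chr19:38244035-38292614), had 395, 343 and 356 CPM in BoM-1833 and 0.346, 0.0827 and 0.194 CPM in MDA-MB-436 (log2 fold change 10.83 ± 0.19, SE; adjusted p = 3.77e-12, edgeR). The claudins split: CLDN7 was 143-fold and CLDN4 6.8-fold higher in BoM-1833, whereas CLDN3 was 9.14-fold and CLDN1 6.95-fold higher in MDA-MB-436. GRHL1, an epithelial transcription factor, and MARVELD2, which encodes tricellulin, were 4.38-fold and 3.45-fold higher in MDA-MB-436. Each line thus had claudins of which the other had little.

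Mesenchymal genes were expressed by both lines but through different members. Of 20 tested out of 25, 8 were higher in BoM-1833 and 5 in MDA-MB-436. VIM, the vimentin gene, had 4641, 4192 and 4459 CPM in BoM-1833 and 1008, 1066 and 1069 CPM in MDA-MB-436, a log2 fold change of 2.08 ± 0.08 (SE). The cadherins were exchanged. CDH2, which encodes N-cadherin (chr18:27950966-28177446), had 182, 195 and 194 CPM in MDA-MB-436 and 0.336, 0.557 and 0.23 CPM in BoM-1833, a log2 fold change of -8.97 ± 0.16 (SE). CDH11, which encodes osteoblast cadherin (chr16:64943753-65126112), had 46.4, 52.6 and 64.2 CPM in BoM-1833 and 0, 0 and 0.0646 CPM in MDA-MB-436 (ratio 3073, 551 to 121428). FN1, LOX and PDGFRB, for fibronectin, lysyl oxidase and a PDGF receptor, were 4.33-fold, 7.88-fold and 22.5-fold higher in BoM-1833. FAP, SPARC and TGFBI, for a stromal serine protease and 2 matrix proteins, were higher in MDA-MB-436, FAP with 20, 22.2 and 21.1 CPM against 0, 0.111 and 0 CPM. Without BoM-1833 replicate 2, which held both FAP reads, FAP was at least 271-fold lower in BoM-1833.

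The transcription factors that drive the epithelial-mesenchymal transition (EMT) were also divided, with 4 of 13 tested higher in BoM-1833 and 5 in MDA-MB-436. TWIST1 had 34.1, 36.3 and 36.5 CPM in MDA-MB-436 and 0 reads in BoM-1833, at least 668-fold lower. Its paralog TWIST2 had 34.8, 33.8 and 33.5 CPM in MDA-MB-436 and 0 reads in BoM-1833, at least 637-fold lower. Both basic helix-loop-helix factors were thus on in every MDA-MB-436 library and undetected in every BoM-1833 library. The zinc-finger pair ZEB1 and ZEB2 was reversed between lines: ZEB1 had 114, 144 and 142 CPM in BoM-1833 and 35.1, 40.4 and 40.1 CPM in MDA-MB-436 (log2 fold change 1.79 ± 0.11, SE). ZEB2 had 15.5, 20 and 17.5 CPM in BoM-1833 and 108, 121 and 133 CPM in MDA-MB-436 (log2 fold change -2.77 ± 0.12, SE). SNAI2 and SNAI1, which encode Slug and Snail, were likewise opposed, SNAI2 being 5.98-fold higher in BoM-1833 and SNAI1 7.67-fold higher in MDA-MB-436. FOXQ1, a forkhead factor, had 90.1, 75.5 and 89.2 CPM in BoM-1833 and 5.13, 5.75 and 5.11 CPM in MDA-MB-436.

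**Figure D2:**
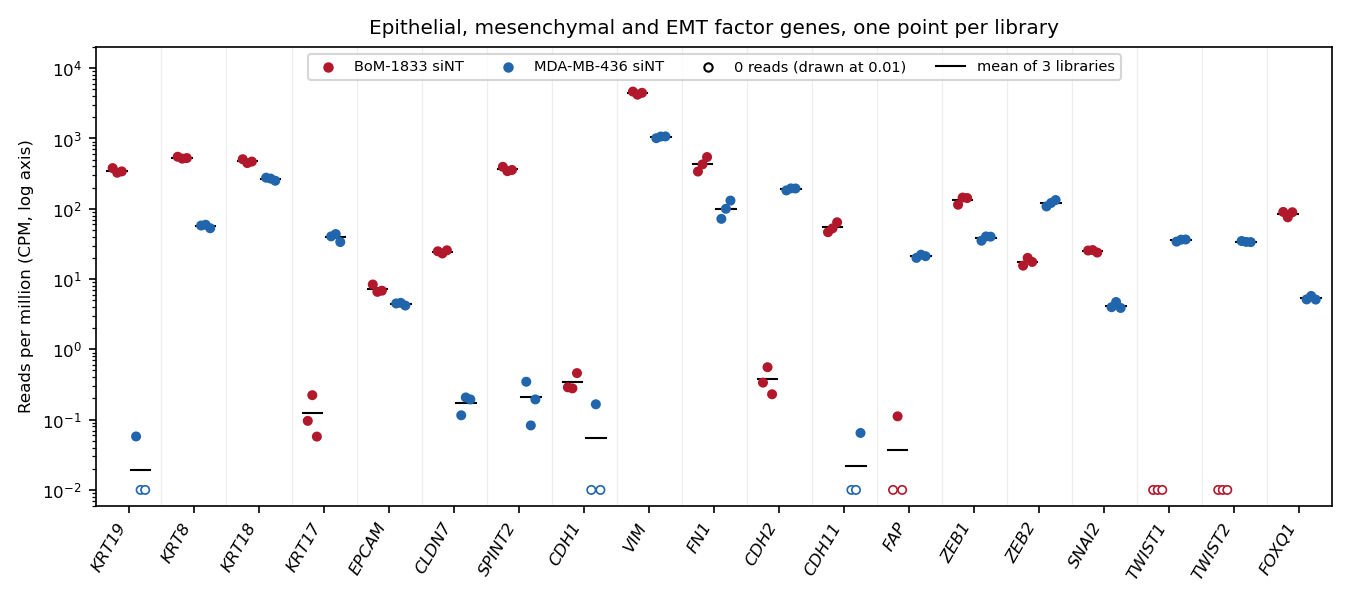
CPM on a log axis for 19 epithelial, mesenchymal and EMT factor genes, with 1 point per siNT library (red BoM-1833, blue MDA-MB-436), open points for 0 reads drawn at 0.01 and bars for the mean of 3 libraries. TWIST1 and TWIST2 sit at 0 reads in BoM-1833 and near 35 CPM in MDA-MB-436, while KRT19 and SPINT2 sit at or near 0 in MDA-MB-436.

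Genes linked to bone metastasis were mostly higher in BoM-1833. That list was written with the history of the line known, so its direction is not independent evidence. Of 31 genes tested out of 37, 18 were higher in BoM-1833 (58.1%) and 3 in MDA-MB-436 (9.68%), with a median log2 fold change of 1.62. MMP1, an interstitial collagenase (chr11:102789920-102798160), had 365, 357 and 388 CPM in BoM-1833 and 1.1, 1.41 and 1.55 CPM in MDA-MB-436, a log2 fold change of 8.09 with an SE of 0.12 (adjusted p = 2.15e-12, edgeR). NOG, the BMP antagonist noggin (chr17:56593699-56595590), had 87.2, 75 and 70.2 CPM in BoM-1833 and 0.115, 0.124 and 0.194 CPM in MDA-MB-436. SRGN, the proteoglycan serglycin, had 217, 215 and 199 CPM against 0.173, 0.0827 and 0.0646 CPM. For these 3 genes the lowest BoM-1833 library exceeded the highest MDA-MB-436 library. Such a lack of overlap, in either direction, was seen at 81.9% of all genes tested.

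Secreted regulators of bone turnover followed. CTGF, connective tissue growth factor, had 641, 610 and 557 CPM in BoM-1833 and 37.1, 46 and 47.4 CPM in MDA-MB-436. IL11, a cytokine that promotes osteoclast formation, had 143, 130 and 139 CPM in BoM-1833 and 18.1, 18.5 and 18 CPM in MDA-MB-436. JAG1, a Notch ligand that tumor cells present to osteoblasts and osteoclast precursors, had 214, 231 and 254 CPM in BoM-1833 and 13.8, 17.5 and 15.6 CPM in MDA-MB-436. These were 13.8-fold, 7.55-fold and 14.9-fold differences without overlap, which 81.9% of all genes tested also lacked. CSF1, the macrophage and osteoclast growth factor, was 6.05-fold higher in BoM-1833. Chosen after its values were seen, CXCR4, the chemokine receptor tied to homing to bone, had 12.2 CPM in BoM-1833 and 0.816 CPM in MDA-MB-436 (log2 fold change 3.93). Genes in the other direction were IL6, a cytokine that stimulates bone resorption, IL8 (CXCL8), a neutrophil chemokine, and SPARC, a bone matrix glycoprotein. PTHLH, parathyroid hormone-related protein, was low in both lines (0.744 and 0.974 CPM) and did not pass the test (adjusted p = 0.262, edgeR), and SPP1, IBSP and TNFSF11 were too low to test.

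Proteases that cut matrix and the inhibitors that hold them in check were higher in BoM-1833 more often than in MDA-MB-436. Of 38 tested out of 44, 17 were higher in BoM-1833 (44.7%) and 9 in MDA-MB-436 (23.7%). MMP14, the membrane-anchored collagenase MT1-MMP (chr14:22836557-22849027), had 1031, 962 and 1108 CPM in BoM-1833 and 0.576, 0.703 and 0.84 CPM in MDA-MB-436, a log2 fold change of 10.51 with an SE of 0.14 (adjusted p = 2.15e-12, edgeR). TIMP3, a matrix-bound metalloproteinase inhibitor (chr22:32801701-32863043, overlapping SYN3 on the opposite strand), had 1156, 1191 and 1280 CPM in BoM-1833 and 2.65, 3.39 and 2.71 CPM in MDA-MB-436. Enzyme and inhibitor were thus both high in the same line. THBD, thrombomodulin, was 711-fold higher and F3, tissue factor, 7.56-fold higher in BoM-1833. MMP2, the gelatinase that MMP14 activates at the cell surface, was reversed, with 20.6, 23.3 and 24.3 CPM in MDA-MB-436 and 0.0961, 0.0557 and 0 CPM in BoM-1833 (ratio 426, 146 to 2070). MMP17, ADAM12 and TFPI2, for a GPI-anchored metalloproteinase, a disintegrin metalloproteinase and a Kunitz inhibitor, were also higher in MDA-MB-436; ADAM12 was 29.2-fold and TFPI2 10.6-fold higher.

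Genes that ERK signaling switches on, many of which feed back to dampen it, were higher in BoM-1833. Of 30 ERK output genes, all of them tested, 18 were higher in BoM-1833 (60%) and 2 in MDA-MB-436 (6.67%), with a median log2 fold change of 1.53. DUSP6, a phosphatase of ERK (chr12:89347232-89353271), had 478, 486 and 560 CPM in BoM-1833 and 1.1, 1.24 and 1.42 CPM in MDA-MB-436, a log2 fold change of 8.66 with an SE of 0.13 (adjusted p = 2.15e-12, edgeR). DUSP4, another MAP kinase phosphatase, had 982, 1086 and 1154 CPM in BoM-1833 and 67.1, 69.4 and 72.2 CPM in MDA-MB-436. CCND1, cyclin D1, is plotted with the rest of the list and was past the 2-fold test in the same direction. SPRY1, a Sprouty feedback inhibitor, had 53.7, 58.6 and 62 CPM in BoM-1833 and 1.04, 1.24 and 1.03 CPM in MDA-MB-436. TRIB2, a Tribbles pseudokinase, was 57.1-fold higher in BoM-1833. The exceptions were EREG, the EGF receptor ligand epiregulin, with 34.8, 46.2 and 46.3 CPM in BoM-1833 and 333, 346 and 415 CPM in MDA-MB-436, and EPHA4, an ephrin receptor, 3.56-fold higher in MDA-MB-436. FOSL1, an AP-1 subunit often read as an ERK target and named here after its values were seen, had 324 CPM in BoM-1833 and 272 CPM in MDA-MB-436 and was not past the 2-fold test.

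Receptor tyrosine kinases, which act upstream, went both ways. Of 32 tested out of 40, 14 were higher in BoM-1833 (43.8%) and 9 in MDA-MB-436 (28.1%). PDGFRB was 22.5-fold, LTK 28.4-fold, MERTK 13.6-fold and MST1R, the receptor RON, 12.3-fold higher in BoM-1833. FLT4, the VEGF-C receptor, had 37.2, 39.6 and 41.2 CPM in MDA-MB-436 and 0 reads in BoM-1833, at least 737-fold lower. FGFR2 had 13.2, 13.8 and 18.2 CPM in MDA-MB-436 and 0 reads in BoM-1833, at least 277-fold lower. ROR2, a WNT5A receptor, and DDR2, a collagen receptor, were higher in MDA-MB-436 as well, DDR2 by 40.7-fold. FLT4, FGFR2 and ROR2 were undetected in every BoM-1833 library.

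The NF-kB and cytokine genes had the opposite direction to the ERK output genes. Of 38 tested out of 40, 22 were higher in MDA-MB-436 (57.9%) and BoM-1833 was the higher line at 4 (10.5%); the median log2 fold change was -1.87. CCL20, a chemokine for CCR6-bearing lymphocytes and dendritic cells (chr2:227805739-227817564), had 178, 172 and 165 CPM in MDA-MB-436 and 0.288, 0.0557 and 0.23 CPM in BoM-1833, a log2 fold change of -9.73 with an SE of 0.18 (adjusted p = 4.75e-12, edgeR). IL6 had 227, 227 and 222 CPM in MDA-MB-436 and 10.1, 9.52 and 9.64 CPM in BoM-1833 (log2 fold change -4.53 ± 0.08, SE). IL8 had 694, 634 and 598 CPM in MDA-MB-436 and 65.3, 68.3 and 63.1 CPM in BoM-1833. The separation was complete for all 3 genes, as it was at 81.9% of all genes tested. IL32 and CCL5, a proinflammatory cytokine and a T-cell chemokine, were 199-fold and 195-fold higher in MDA-MB-436, and CXCL5 had 9.22, 8.6 and 9.5 CPM against a single read. Inducible cytokines higher in BoM-1833 were CSF2, IL11 and CSF1, together with PTGS2, the cyclooxygenase-2 gene; CSF2, which encodes GM-CSF, was 8.66-fold and PTGS2 3.8-fold higher. The pathway's core members NFKB1, NFKB2 and NFKBIA, named after their values were seen, did not pass the 2-fold test (49.2 and 91.3, 80.5 and 153, and 143 and 158 CPM in BoM-1833 and MDA-MB-436).

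**Figure D3:**
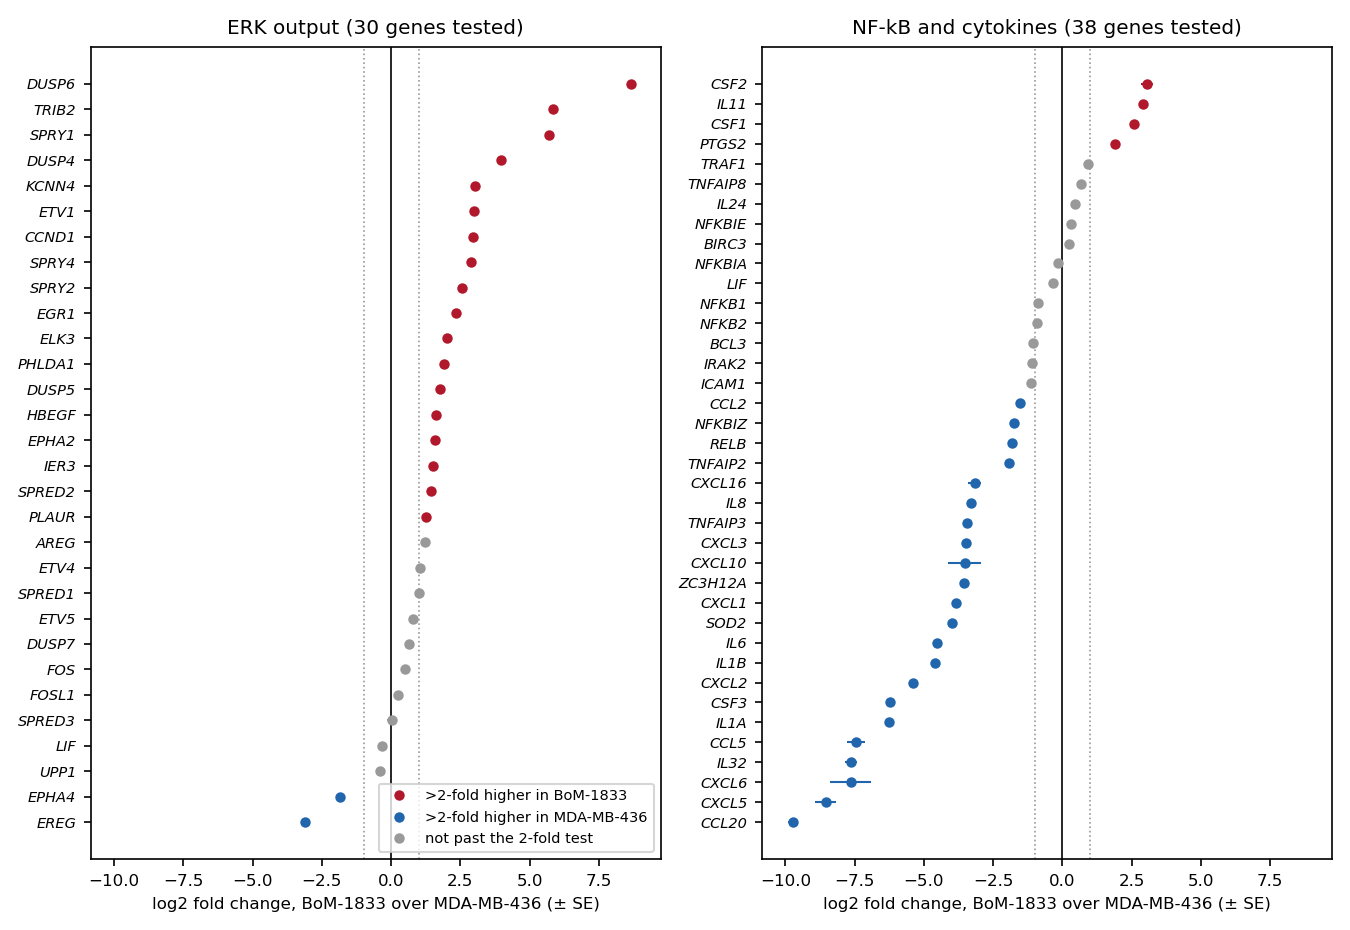
Log2 fold change (BoM-1833 over MDA-MB-436) with its SE, derived from the F statistic, for each tested gene of the ERK output list (left, 30 genes) and of the NF-kB and cytokine list (right, 38 genes). Red and blue points passed the 2-fold test in either direction; 18 genes on the left are red and 22 on the right are blue.

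Interferon-stimulated genes, which cells switch on against viruses, went both ways. Of 46 genes, all tested, 19 were higher in BoM-1833 (41.3%) and 9 in MDA-MB-436 (19.6%). EPSTI1 had 5.91, 4.51 and 3.96 CPM in BoM-1833 and 0 reads in MDA-MB-436. TRIM22, an antiviral ubiquitin ligase, was 151-fold and IFITM2, an antiviral membrane protein that overlaps IFITM1, 122-fold higher in BoM-1833, and XAF1 had 6.87, 7.74 and 7.92 CPM against 3 reads, all of them in MDA-MB-436 replicate 2 (at least 81.8-fold higher without it). The reverse held for RSAD2, which encodes the antiviral enzyme viperin, with 22.1, 24.3 and 22.6 CPM in MDA-MB-436 and 0.0961, 0 and 0 CPM in BoM-1833 (ratio 652, 180 to 5387). Its overlapping neighbor CMPK2 had 7.96, 9.43 and 7.43 CPM against a single read. The next gene, RNF144A, had 39.9 CPM in MDA-MB-436 and 0 reads in BoM-1833. These 3 neighbors (chr2:6840570-7068286) were thus at or near 0 together in BoM-1833, and whether RSAD2 and CMPK2 differ through interferon signaling or through their position was not tested. OASL and IFI44 were 5.35-fold and 5.01-fold higher in MDA-MB-436.

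Class II antigen presentation, by which cells show peptides to helper T cells, was read mainly in BoM-1833. In the antigen-presentation list 13 of 27 tested genes were higher in BoM-1833 (48.1%) and 2 in MDA-MB-436 (7.41%). CD74, the invariant chain of class II molecules (chr5:150401637-150412929), had 165, 158 and 182 CPM in BoM-1833 and 0.288, 0.207 and 0.129 CPM in MDA-MB-436, a log2 fold change of 9.60 with an SE of 0.16 (adjusted p = 3.34e-12, edgeR). HLA-DRA, the class II alpha chain, had 21.9, 20.9 and 22.7 CPM in BoM-1833 and 0.0576, 0 and 0 CPM in MDA-MB-436 (ratio 1244, 223 to 49156). HLA-DPA1 and HLA-DPB1, which overlap on opposite strands, were at 6.39 and 2.86 CPM in BoM-1833 and at 0 reads in MDA-MB-436. Their master regulator CIITA, outside the naming rule, had 8.93 CPM against 0.147 CPM. Class I genes with the opposite direction were HLA-C and HLA-F: HLA-C was 2.8-fold and HLA-F 6.43-fold higher in MDA-MB-436, and HLA genes are similar enough that reads may be split among them.

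The matrix genes were skewed to MDA-MB-436 in number. Of 40 collagen, laminin and other matrix genes tested out of 45, 19 were higher in MDA-MB-436 (47.5%) and BoM-1833 was the higher line at 10 (25%); the median log2 fold change was -1.02. FBLN2, the elastic-fiber protein fibulin-2 (chr3:13549131-13638422), had 491, 626 and 654 CPM in MDA-MB-436 and 0, 0.557 and 0.23 CPM in BoM-1833, a log2 fold change of -11.17 ± 0.30 (SE). BGN, the proteoglycan biglycan, had 9.34, 12.9 and 11.4 CPM in MDA-MB-436 and 0 reads in BoM-1833, as both nidogen genes did. In contrast LAMB3, the beta chain of laminin-332 (chr1:209614870-209652466), had 828, 758 and 809 CPM in BoM-1833 and 19.3, 21.5 and 18.2 CPM in MDA-MB-436, a log2 fold change of 5.34 ± 0.10 (SE). COL13A1, a transmembrane collagen, had 300, 275 and 290 CPM in BoM-1833 and 10.4, 9.1 and 9.24 CPM in MDA-MB-436. COL8A1 was 62.8-fold and COL6A3 206-fold higher in BoM-1833, and COL1A1 4.44-fold.

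Integrins, the receptors for this matrix, were higher in BoM-1833 more often than in MDA-MB-436, with 11 of 26 integrin and adhesion genes tested (42.3%) against 4 in MDA-MB-436 (15.4%). ITGA2 and ITGA1, the alpha chains of collagen receptors, had 536, 717 and 830 CPM and 54.3, 64 and 87.6 CPM in BoM-1833, and 23.6, 28.2 and 37.8 CPM and 3.29, 4.42 and 3.3 CPM in MDA-MB-436. ITGA10, another collagen-binding chain, was 419-fold higher in BoM-1833, and ITGB2, the leukocyte integrin beta chain, 40.3-fold. ITGA4, which with beta-1 binds VCAM1 and fibronectin (chr2:181457202-181536187), had 104, 115 and 119 CPM in MDA-MB-436 and a single read over the BoM-1833 libraries (ratio 6336, 1137 to 250315). L1CAM, a neural adhesion molecule, had 639, 725 and 744 CPM in MDA-MB-436 and 75, 74.2 and 79.1 CPM in BoM-1833. These 3 collagen-receptor alpha chains were therefore higher in BoM-1833, and the VCAM1 receptor chain in MDA-MB-436.

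Targets and regulators of YAP and TEAD, the effectors of the Hippo pathway, were higher in BoM-1833 for 15 of 37 tested (40.5%) and in MDA-MB-436 for 4 (10.8%). ANKRD1, a direct YAP target (chr10:90912096-90921276), had 379, 360 and 315 CPM in BoM-1833 and 0.231, 0.124 and 0.0646 CPM in MDA-MB-436, a log2 fold change of 11.22 with an SE of 0.19 (adjusted p = 3.09e-12, edgeR). CTGF, given above, is another such target. NF2, which encodes merlin, an upstream activator of the Hippo kinases that restrain YAP, had 15.7, 17.8 and 14.5 CPM in BoM-1833 and 0.0576, 0.207 and 0.194 CPM in MDA-MB-436, 105-fold apart. The targets and this inhibitor were thus higher in the same line. NUAK2, GADD45A, TEAD4 and VGLL4 were 2.32- to 5.93-fold higher in MDA-MB-436.

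In the TGF-beta and BMP family, ligands and their antagonists differed in both directions. Of 42 tested out of 44, 14 were higher in BoM-1833 (33.3%) and 9 in MDA-MB-436 (21.4%), and 11 did not pass even the test without a fold minimum. BMP4 had 99.5, 100 and 110 CPM in BoM-1833 and 0.807, 0.331 and 0.582 CPM in MDA-MB-436 (log2 fold change 7.55 ± 0.17, SE). INHBB, the activin B subunit, had 95.7, 102 and 104 CPM in BoM-1833 and 0.0576, 0.0413 and 0.129 CPM in MDA-MB-436. ID4, an inhibitor of differentiation, was at 4.75 CPM against 0 reads. BMP7, BMP5 and GDF5, other ligands of the family, had 16.2, 16.1 and 26.2 CPM in MDA-MB-436 and 1 to 3 reads in all in BoM-1833. The 3 reads of BMP5 and of GDF5 were all in replicate 2, and without it they were at least 204-fold and 334-fold lower in BoM-1833. The lines also used different BMP antagonists, NOG in BoM-1833 and GREM1 in MDA-MB-436. SMAD4, the common mediator of both branches (chr18:51028394-51085045), had 59.7, 66.9 and 62.8 CPM in BoM-1833 and 7.09, 7.52 and 5.95 CPM in MDA-MB-436, a log2 fold change of 3.19 ± 0.11 (SE).

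Notch and WNT genes were divided, with 12 of 43 tested higher in BoM-1833 (27.9%) and 15 in MDA-MB-436 (34.9%). The 2 Jagged ligands were opposed: JAG1 was high in BoM-1833 as given above, while JAG2 had 38.1, 47.7 and 39.7 CPM in MDA-MB-436 and 0.961, 1.89 and 1.38 CPM in BoM-1833. DLL3, an inhibitory Notch ligand, had 5.36, 5.75 and 3.68 CPM in MDA-MB-436 and 2 reads in BoM-1833. Among WNT genes, RNF43, a ligase that removes Frizzled receptors, and LGR5, an R-spondin receptor, were at 4.56 and 2.2 CPM in BoM-1833 and near 0 in MDA-MB-436, and LRP5, a WNT co-receptor, was 5.43-fold higher in BoM-1833. SFRP1, a secreted WNT antagonist, was 44-fold higher in MDA-MB-436, and NKD2, a Dishevelled antagonist, was at 0 reads in BoM-1833 against 4.91 CPM.

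Different tumor suppressor genes were low in each line. Among 42 driver and cell-cycle genes, all tested, 10 were higher in BoM-1833 (23.8%) and 8 in MDA-MB-436 (19%). These shares were not far above the 16.7% and 17.5% over all genes tested, and the median log2 fold change was -0.03. The genes below are the members with the largest differences and do not stand for the list. RB1, the retinoblastoma gene (chr13:48303726-48599436), had 95, 110 and 104 CPM in BoM-1833 and 10.2, 11.9 and 13.1 CPM in MDA-MB-436, a log2 fold change of 3.13 ± 0.11 (SE). NF2 and SMAD4, given above, were low in MDA-MB-436 too, as was the gene CCND2, a D-type cyclin. The reverse was seen on chromosome 9: CDKN2A, which encodes the cyclin-dependent kinase inhibitor p16 and ARF (chr9:21967753-21995301), had 145, 142 and 129 CPM in MDA-MB-436 and 0, 0.278 and 0 CPM in BoM-1833. Without BoM-1833 replicate 2, which held all 5 of its reads, it was at least 1774-fold lower in BoM-1833. Next to it, CDKN2B, the p15 gene, had 8.13, 8.81 and 9.89 CPM against a single read. MTAP, a methionine salvage enzyme (chr9:21802543-21937651), had 66.2, 60.1 and 59.8 CPM in MDA-MB-436 and 0 reads in BoM-1833, at least 1160-fold lower. These 3 neighbors were thus silent together in BoM-1833. CCNE1, cyclin E1, had 40.2, 36.2 and 37.7 CPM in MDA-MB-436 and 5.91, 4.96 and 5.45 CPM in BoM-1833.

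PHF19, a Polycomb-like subunit that recruits the histone methyltransferase complex PRC2 and the gene targeted in the other libraries, had 103, 102 and 100 CPM in BoM-1833 and 155, 179 and 199 CPM in MDA-MB-436. It was 1.74-fold higher in MDA-MB-436 (log2 fold change -0.80 ± 0.09, SE; adjusted p = 7.54e-06, edgeR) and not past the 2-fold test. PRC2 genes past the 2-fold test made up a share near the background, and PRC1 genes a smaller one. Of 14 PRC2 genes tested out of 15, JARID2 (3.08-fold) and EZH1 (2.35-fold), an accessory subunit and the second methyltransferase, were higher in BoM-1833 (14.3%), and RBBP4, AEBP2 and RBBP7 were 2.23- to 2.65-fold higher in MDA-MB-436 (21.4%). AEBP2 and RBBP7 missed the 2-fold test when any of several single libraries was left out, AEBP2 with a log2 fold change of -1.12 without BoM-1833 replicate 1, -1.15 without BoM-1833 replicate 3 and -1.13 and -1.19 without MDA-MB-436 replicates 1 and 2. RBBP7 missed it at -1.12 and -1.16 without BoM-1833 replicates 2 and 3 and at -1.11 and -1.17 without MDA-MB-436 replicates 1 and 2. With DESeq2 and with limma, EZH1, AEBP2 and RBBP7 all missed the 2-fold test. Of 27 PRC1 genes, RING1 alone was higher in BoM-1833 (3.7%), while RNF2, its paralog in the ubiquitin ligase, BCOR, SCML2 and AUTS2 were higher in MDA-MB-436 (14.8%). RING1 had 78.4, 69.9 and 66.4 CPM in BoM-1833 and 33.5, 27.4 and 24.2 CPM in MDA-MB-436, and RNF2 had 31.7, 31.3 and 27.7 CPM in BoM-1833 and 89, 96.9 and 112 CPM in MDA-MB-436. The catalytic paralogs of PRC1 were thus opposed between lines.

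HOX genes, classical Polycomb targets that encode positional identity, were mostly higher in MDA-MB-436. Of 29 HOX genes tested out of 39, 18 were higher in MDA-MB-436 (62.1%) and BoM-1833 was the higher line at 5 (17.2%); the median log2 fold change was -3.73. In BoM-1833, 19 of the 39 genes had 0 reads in all 3 libraries, against 2 in MDA-MB-436. Of all 29972 rows, 16722 to 16971 had a read in each BoM-1833 siNT library and 17107 to 17731 in each MDA-MB-436 siNT library. Genes without reads were thus common in both lines, and the BoM-1833 count is not read as particular to HOX genes. HOXA3 had 13.4, 13.5 and 14.2 CPM, HOXA10 13.4, 14.7 and 11.9 CPM, HOXA7 8.3, 8.52 and 9.69 CPM and HOXA4 5.19, 3.8 and 3.75 CPM in MDA-MB-436, and all 4 were at 0 reads in BoM-1833, at least 78.9- to 256-fold lower. Among genes higher in BoM-1833, HOXB9 had 30.1, 31.4 and 30.6 CPM in BoM-1833 and 0.98, 1.94 and 2.26 CPM in MDA-MB-436, and HOXB3 was 2.77-fold higher. HOXB3 missed the 2-fold test without BoM-1833 replicate 2 (log2 fold change 1.25) or 3 (1.459) and without MDA-MB-436 replicate 1 (1.25). HOXD1 was 10.4-fold higher in BoM-1833. HOX transcripts overlap within clusters, and reads may be assigned to either neighbor.

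Germline antigens, genes of the testis that many cancers switch on, were expressed by both lines as different sets, 7 of 18 tested higher in BoM-1833 and 6 in MDA-MB-436. SPANXB1 had 165, 142 and 142 CPM in BoM-1833 and a single read in MDA-MB-436, and XAGE1B had 113, 96.1 and 107 CPM against 0.115, 0.0413 and 0.0646 CPM. MAGEA4 had 714, 649 and 599 CPM in MDA-MB-436 and 0, 0.278 and 0 CPM in BoM-1833, and MAGEA10 was 406-fold higher in MDA-MB-436. All 5 MAGEA4 reads in BoM-1833 were in replicate 2, and without it MAGEA4 was at least 8353-fold lower there. DDX43 and TEX15 were at 0 reads in BoM-1833 and at 40.1 and 7.29 CPM in MDA-MB-436. MAGE, SPANX and XAGE genes have near-identical copies, so the level of a single copy is uncertain.

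Proliferation genes had the lowest share past the 2-fold test of the 29 lists. Of 40, all tested, 0 were higher in BoM-1833 by the 2-fold test and 3 in MDA-MB-436 (7.5%), and under the test without a fold minimum 12 were higher in BoM-1833 and 17 in MDA-MB-436, those 3 included. The 3 were MYBL2 (3.79-fold), MCM4 (2.76-fold) and FOXM1 (2.47-fold), a DREAM-complex target, a replicative helicase subunit and a G2/M transcription factor. MKI67, the Ki-67 gene named after its values were seen, had 420 CPM in BoM-1833 and 437 CPM in MDA-MB-436 and did not pass the test (adjusted p = 0.677, edgeR). Among cholesterol synthesis genes 3 of 28 were higher in each line (10.7%). STARD4, a sterol carrier, was 2.49-fold higher in BoM-1833, and the synthesis enzymes SQLE, FDFT1 and NSDHL were 7.5-fold, 3.21-fold and 2.37-fold higher in MDA-MB-436. NSDHL missed the 2-fold test without BoM-1833 replicate 3 (log2 fold change -1.18).

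Metabolic genes split evenly, 12 of 44 tested being higher in BoM-1833 (27.3%) and 11 in MDA-MB-436 (25%). SLC2A3, the high-affinity glucose transporter GLUT3 (chr12:7919230-7936275), had 105, 111 and 119 CPM in BoM-1833 and 0.231, 0.207 and 0.388 CPM in MDA-MB-436. ALDH1A3, a retinaldehyde dehydrogenase and stem-like cell marker (chr15:100877714-100916626), had 519, 507 and 528 CPM in MDA-MB-436 and 4.51, 4.4 and 3.33 CPM in BoM-1833, a log2 fold change of -6.98 ± 0.12 (SE). FBP1, a gluconeogenic phosphatase, CPS1, of the urea cycle, and AKR1C3, an aldo-keto reductase with close paralogs, were 29.3- to 187-fold higher in BoM-1833. ASS1, an arginine synthesis enzyme, was 14.7-fold higher in MDA-MB-436, as were ALDH1L2, 152-fold, and ALDH1A1, with 6.34, 5.54 and 5.17 CPM against a single read.

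Genes often used as references included some that differed widely. Of 25, 2 were higher in each line (8%): YWHAZ, an adapter protein, had 1812, 1904 and 1864 CPM in BoM-1833 and 137, 135 and 132 CPM in MDA-MB-436, and REEP5 was 3.11-fold higher in BoM-1833, while PSMB4 and SDHA were 2.95-fold and 2.34-fold higher in MDA-MB-436. GAPDH, in the same list, had 3858 CPM in BoM-1833 and 3881 CPM in MDA-MB-436 and did not pass the test (adjusted p = 0.92, edgeR). Of the most abundant transcripts, EEF1A1, a translation elongation factor, did not pass the test (adjusted p = 0.184, edgeR), FLNA, filamin A, was 3.79-fold higher in MDA-MB-436 and ENO1, enolase, 2.29-fold higher in BoM-1833. ENO1 missed the 2-fold test without MDA-MB-436 replicate 3 (log2 fold change 1.16), and ACTB, 1.54-fold apart with the higher level in MDA-MB-436, passed only the test without a fold minimum. The ribosomal RNA entry RNA28S5 had 17409, 4664 and 11072 CPM in BoM-1833 and 8486, 5836 and 6152 CPM in MDA-MB-436, and the libraries of the lines overlapped (adjusted p = 0.0822, edgeR).

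Markers of other cell types were sparse in both lines. CD3E and MS4A1 of lymphocytes, DCN and LUM of fibroblasts, SP7 of osteoblasts and HBA1 and HBB of red cells had 0 reads in every siNT library. Of 26 immune markers 9 were tested, and their summed level was 195 to 211.7 CPM in BoM-1833 and 71 to 75.2 CPM in MDA-MB-436, most of it from CD68, a lysosomal glycoprotein (199, 186 and 201 CPM against 39.4, 37.7 and 42.7 CPM). S100A9, a calcium-binding protein of neutrophils and some epithelia, had 13, 14 and 10.1 CPM in MDA-MB-436 and 0 reads in BoM-1833. Of 15 endothelial and blood markers 4 were tested, 3 being higher in BoM-1833 and 1 in MDA-MB-436. The latter was ERG, an ETS factor of endothelium, with 1.04, 1.36 and 1.1 CPM in MDA-MB-436 and 0.048, 0 and 0.0574 CPM in BoM-1833. The endothelial genes PECAM1, TIE1 and KDR were at 19.5, 14.3 and 9.54 CPM in BoM-1833 and at 1.45, 0.0276 and 2.41 CPM in MDA-MB-436, while VWF and CDH5 were too low to test and HBB was at 0. The fibroblast and bone list summed to 55.2 to 63.8 CPM in BoM-1833 and 63.2 to 77.4 CPM in MDA-MB-436.

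The line differences came back in the siPHF19 libraries, which are separate libraries of the same lines. Line and any run effect cannot be told apart in these libraries either. Of 4817 genes more than 2-fold apart in the siNT libraries that were also tested in the siPHF19 libraries, 4813 had the same direction, 4792 differed and 4406 were again past the 2-fold test. These genes were selected for a large siNT difference, and the same counts over all genes are not given here. Pearson's r of the log2 fold changes across 14262 genes was 0.978, as a description over genes that share lines and expression levels. MMP14 had a log2 fold change of 10.51 in siNT and 9.73 in siPHF19 libraries, and DUSP6 had 8.66 and 8.91. The size of the line difference depended on the siRNA at 671 of 15012 genes (adjusted p under 0.05 for the interaction, edgeR, all 12 libraries).

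**Figure D4:**
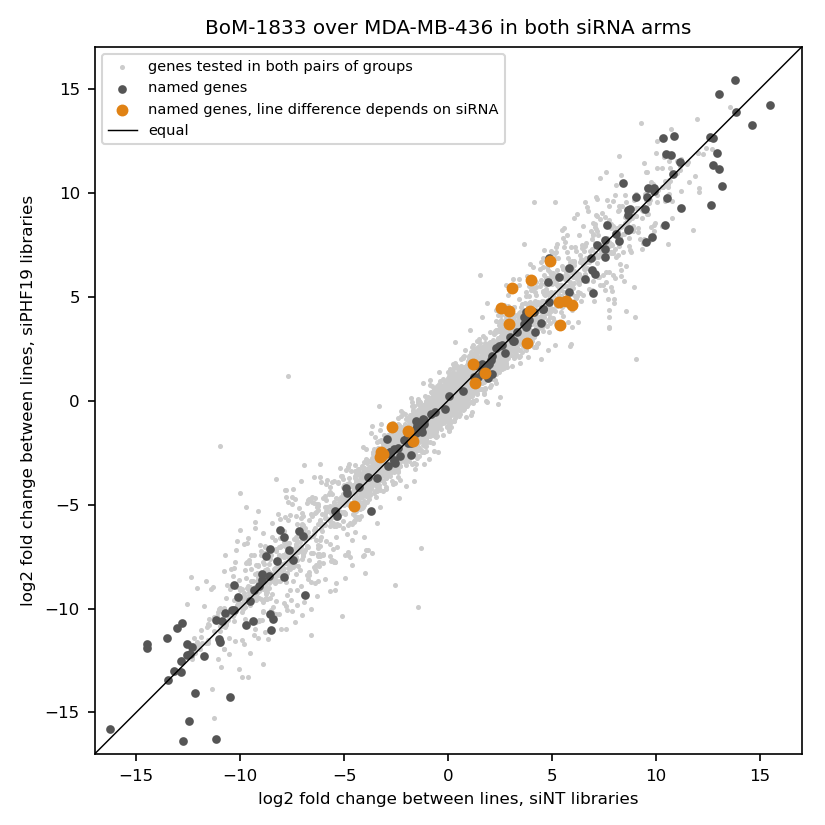
Log2 fold change between lines (BoM-1833 over MDA-MB-436) in the siNT libraries (horizontal) and in the siPHF19 libraries (vertical), 1 grey point per gene tested in both, named genes in dark grey, and in orange 22 named genes whose line difference depended on the siRNA; the line marks equality. The orange points keep the sign of the siNT difference.

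Position along the genome accompanied part of the differences. Over genes with a mean of at least 10 CPM, the median log2 fold change by chromosome ran from -0.82 on chromosome 9 (393 genes) to 0.69 on chromosome 6 (494 genes), with 0.53 on chromosome 17 and -0.39 on chromosome 7. In windows of 40 neighboring genes, all 40 genes between chr6:36493892-43171299 had a log2 fold change above 0 (median 1.78), and 0 of 40 between chr9:130578965-136375577 did (median -1.55). Only the sign was counted in these windows, whether or not a gene passed a test. These are descriptions of the fitted values, chosen after all windows were seen, and DNA copy number was not measured here.

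**Figure D5:**
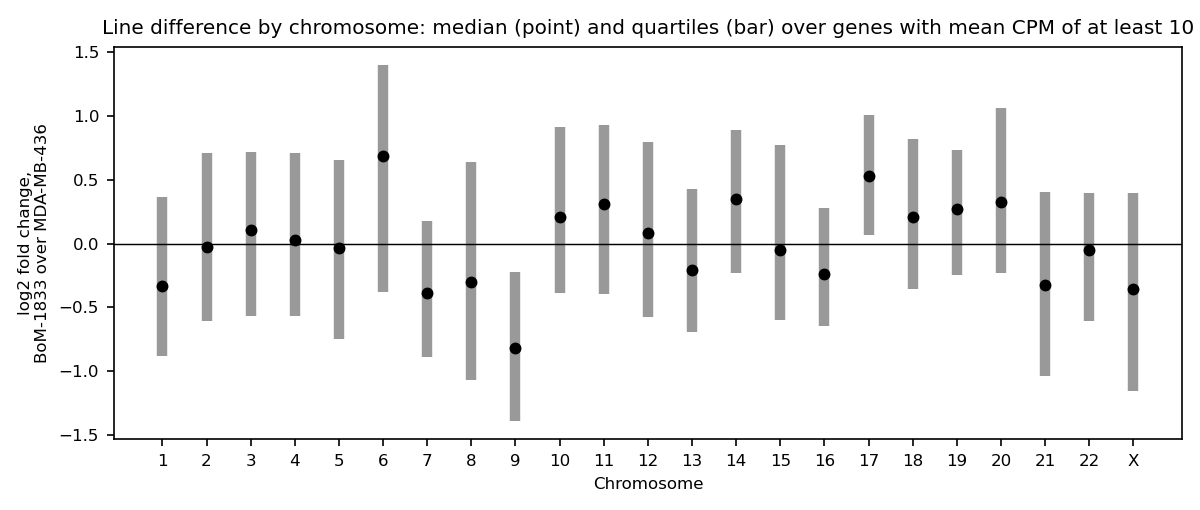
Median (point) and quartiles (bar) of the log2 fold change, BoM-1833 over MDA-MB-436, for genes with a mean of at least 10 CPM on each chromosome. Chromosome 9 has the lowest median (-0.82) and chromosome 6 the highest (0.69).

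Silent genes also came in runs of neighbors. Runs of at least 3 consecutive protein-coding genes under 0.1 CPM in one line and at 1 CPM or more in the other numbered 8 with 30 genes for BoM-1833 and 4 with 15 genes for MDA-MB-436, when genes under 0.1 CPM in one line and under 1 CPM in the other were passed over. One, silent in BoM-1833, lay in the HOXA cluster on chromosome 7 and took in HOXA3, HOXA4, HOXA5, HOXA7, HOXA10 and HOXA11. A run of 4 held KLHL9, MTAP, CDKN2A and CDKN2B (chr9:21329671-22009363), also silent in BoM-1833. In MDA-MB-436 the silent runs were the cystatin genes CST4, CST1, CST2 and CST7 (chr20:23685640-24959928), 5 SPANX and MAGEC genes on chromosome X, and 2 runs around protocadherin genes, PCDH20, PCDH9 and DACH1 on chromosome 13 and PCDH10, PABPC4L and PCDH18 on chromosome 4.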

How the data were processed

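mRNA was measured in 12 libraries, of which the 6 siNT libraries were compared. The deposited tables, 1 per line, give a normalized signal per gene, which, from the values, is a read count divided by 1 size factor per library. The submitters' processing notes name STAR, RSEM 1.3.1, DESeq2 1.46.0 and hg38; which gene models were counted, and whether by strand, is not given in the sources used here. RSEM estimates counts, so reads of similar genes may have been split and rounded. Whole reads were recovered from the steps of the deposited signal: 100% of values came out whole within 0.01. These reads were the input of the tests.

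Both tables were joined by gene name. Of 29972 rows, 28 with date-like names were dropped (0.165 to 0.247% of reads per library), leaving 29944 genes. Genes were filtered with filterByExpr (minimum count 10) and tested with edgeR 4.0.16 (R 4.3.3) after TMM scaling: the quasi-likelihood test, and glmTreat for differences over 2-fold, both with Benjamini-Hochberg adjustment at 0.05. The procedure was also run on simulated counts in which only a small set of genes differed, balanced in direction. Most genes differ in these data, so that run cannot show how the scaling and the calls behave here. Counting intervals (95%) and floors of 3 reads cover counting error only. Depth was 15186338 to 24010271 reads per library. Gene positions are GENCODE v29 on GRCh38, and promoters are RefSeq on GRCh38.p14.

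Samples and gene lists were chosen with earlier results of these data known. Named genes were the 10 largest differences in each direction with at least 20 CPM, up to 4 per direction and list, PHF19, the 5 most abundant genes per line, and 5 per direction with 3 reads or fewer in a line; some of them are not reported here. Alternatives were other scalings and filters, DESeq2 1.42.0, limma 3.58.1 with a pseudocount of 0.5 CPM, a replicate block, each library left out, all 12 libraries together, and the siPHF19 libraries.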

Additional observations from a re-analysis of the deposited data

Results flagged for a closer look

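At 22 of the named genes the size of the line difference itself differed between the siNT and the siPHF19 libraries (interaction term, edgeR's quasi-likelihood test over all 12 libraries, adjusted p under 0.05), with the same sign in both. Values below are the siPHF19 minus the siNT line difference on the log2 scale (BoM-1833 over MDA-MB-436).

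The gap widened on the BoM-1833 side at CSF2 by 2.34 (from 3.06 to 5.40), SNAI2 by 1.87 (2.56 to 4.43), FOXQ1 by 1.84 (3.98 to 5.82), COL13A1 by 1.78 (4.91 to 6.69) and IL11 by 1.39 (2.91 to 4.30). Smaller differences of the same kind were 0.78 at F3, 0.56 at ENO1 and 0.34 at DUSP4. Slug, GM-CSF and interleukin-11 genes were thus further apart in the siPHF19 libraries.

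The gap narrowed on the BoM-1833 side at CPS1 (-1.72, from 5.37 to 3.65), COL8A1 (-1.38), CTGF (-1.03, from 3.79 to 2.76), SPRY1 (-0.92), LAMB3 (-0.62), ZEB1 (-0.48) and STARD4 (-0.47). Among genes higher in MDA-MB-436 it narrowed at HLA-F (1.43, from -2.67 to -1.25), L1CAM (0.74), IL8 (0.55), EREG (0.55) and MYBL2 (0.47). It widened on that side at IL6 (-0.53, from -4.53 to -5.05) and FDFT1 (-0.28).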

How the results depend on the processing

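Both counts stayed within 1.5 times of their reported values under all 16 alternatives. Genes that differed numbered 11208 to 13008, against 11757. Genes more than 2-fold apart numbered 4101 (limma) to 5733 (no filter), against 4984; DESeq2 called 4433, of which 4143 were among the 4984. Leaving out 1 library gave 11208 to 11846 and 4845 to 5078. Other scalings moved the median log2 fold change by at most -0.0377. Of 204 named genes, 201 to 204 kept their direction and their side of the test without a fold minimum under each alternative. Of the 199 past the 2-fold test, 190 to 199 passed it again in the same direction: 190 in the siPHF19 libraries and with limma, 191 with DESeq2, and 195 to 198 with 1 library left out. Calls lost in the siPHF19 libraries included PTGS2, HLA-F, VGLL4, EZH1, AEBP2, HOXB3 and STARD4. Those lost both with DESeq2 and with limma included MARVELD2, EZH1, AEBP2, RBBP7, HOXB3, NSDHL and SDHA. RNR2, a mitochondrial ribosomal RNA that did not pass the test, changed from 0.07 to -0.009337 (adjusted p = 0.904, edgeR) without MDA-MB-436 siNT replicate 1, the low end of a range that reached 0.1124 without replicate 2; the cause was not tested. RNA28S5 passed the test without BoM-1833 siNT replicate 2 (log2 fold change 1.06), with the replicate block (0.53), with no filter (0.68), with all 12 libraries (0.70) and in the siPHF19 libraries (0.46). EEF1A1 (-0.40) and RNR2 (0.22) passed it in the siPHF19 libraries.

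Whether equal replicate numbers pair the samples is not known. Deviations from the group means correlated at 0.56, -0.03 and 0.48 for numbers 1, 2 and 3 over 10048 genes. Between unlike numbers the correlations ran from -0.59 (BoM-1833 replicate 1 with MDA-MB-436 replicate 3) to 0.33 (BoM-1833 replicate 2 with MDA-MB-436 replicate 3). The 3 deviations of a line cancel out, so these correlations depend on each other. BoM-1833 replicate 3 with MDA-MB-436 replicate 1 was at -0.47. Replicates 1 and 3 thus lay on opposite sides of a pattern that the lines shared, which need not be a pairing by number. The cause was not tested. With the replicate number as a block, 12278 genes differed and 5125 were more than 2-fold apart. Genes with 0 reads in a line are bounded by depth alone.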
